A study of Mus musculus with 10 samples.

Results

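The microRNAs numbered miR-6896 to miR-7094 form a block of mouse names, many of them given to products of short introns. The members were chosen by their read values, as every mature name in this block above 0 in at least 1 of 2 small RNA libraries, and 129 of the 403 names in the block, out of 1915 names in all, met that rule. The libraries came from cultured cortical neurons of E14 mouse embryos (embryonic day 14) of the ICR strain, collected at DIV11 (day 11 in vitro) after delivery of an adeno-associated virus, AAV-Control or AAV-Gata1. The second carries Gata1, a zinc finger transcription factor best known from red cell and platelet development. Each condition had 1 small RNA library and 1 mRNA library, so differences between the conditions could not be set against a spread of replicates, and no test was made. The series also holds 6 samples of chromatin and input DNA among its 10, which are not used here. The promoter that drives Gata1 in the virus and the share of cells that took it up are not given in the sources used here.

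Most microRNA hairpins are cut out of a longer transcript by the nuclease Drosha with its partner DGCR8. Mirtrons take another route. They are short introns, and splicing itself releases them; after the debranching enzyme DBR1 opens the lariat, the intron folds into a hairpin, which exportin-5 carries to the cytoplasm and Dicer cuts. In tailed mirtrons a splice site forms the end on a single side, and the extra bases on the other side are trimmed away. Because introns usually begin with GU and end with AG, the 3p product of a mirtron, or of a mirtron with its tail at the 5′ side, ends at the splice acceptor.

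Most reference hairpins of the members ended in AG, the letters of a splice acceptor. Of 93 hairpins with a member and a listed hairpin sequence (RefSeq, build GRCm38.p6), 89 (95.7%) ended in AG, against 44 of 438 other hairpins with reads (10.05%) and 19 of the 152 others numbered 1000 or above (12.5%). Both ends, GU at the start and AG at the end, were present in 12 (12.9%), against 7 of the 438 (1.60%). Hairpins of members had a median length of 67 bases, between 52 and 137, and the other hairpins a median of 83 bases. The next lines show 3 hairpins with both intron ends, which are in capitals, because they carry the letters of both splice sites; they are the 3 most read of this kind. The listed 5p arm starts at the first base in Mir6944 and Mir7068, and 5 bases inside in Mir6959.

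Mir6944, chr13:55477681-55477776, minus strand, in Dbn1: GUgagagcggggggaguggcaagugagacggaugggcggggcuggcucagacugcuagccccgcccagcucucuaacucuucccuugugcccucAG
Mir7068, chr8:72470016-72470089, minus strand, in Cherp: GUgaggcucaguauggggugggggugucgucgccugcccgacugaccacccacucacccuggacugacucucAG
Mir6959, chr15:89305658-89305732, minus strand, in Sbf1: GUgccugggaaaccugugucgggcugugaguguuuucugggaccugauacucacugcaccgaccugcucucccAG

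In the next 3 hairpins, which do not begin with GU, capitals mark the listed 5p and 3p arms. The 5p arm starts 5 bases inside the listed hairpin, as in most 5p members, and the 3p arm runs to its last base.

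Mir7066, chr8:70102524-70102586, minus strand, in Ncan: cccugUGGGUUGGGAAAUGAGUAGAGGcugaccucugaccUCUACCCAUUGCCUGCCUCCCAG
Mir7033, chr5:135383730-135383810, minus strand, in Pom121: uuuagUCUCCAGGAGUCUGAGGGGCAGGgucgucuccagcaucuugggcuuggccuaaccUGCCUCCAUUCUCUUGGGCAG
Mir7021, chr4:143136100-143136162, minus strand, in Prdm2: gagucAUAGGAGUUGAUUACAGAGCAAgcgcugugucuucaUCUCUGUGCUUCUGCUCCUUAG

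A mature sequence was found for 119 of the 129 members. The 10 without an entry are miR-6905-5p, miR-6906-5p, miR-6935-5p, miR-6951-5p, miR-6952-5p, miR-6952-3p, miR-6954-3p, miR-6970-5p, miR-6970-3p and miR-7042-5p. Of 49 sequenced 3p members 35 ended in AG (71.4%, exact Clopper-Pearson 95% interval 56.7 to 83.4), against 26 of the other 3p microRNAs with reads (8.23%, interval 5.45 to 11.8). Of the 45 3p members with a listed hairpin, 32 (71.1%) reached the hairpin's last base, and all 32 of those ended in AG. Of 295 other 3p microRNAs 27 (9.15%) reached the last base of theirs, and 6 of these 27 ended in AG. The others numbered 1000 or above lay between: 22 of 71 (31.0%) reached the last base and 15 of 77 (19.5%) ended in AG, against 5 of 224 (2.23%) and 11 of 239 (4.603%) of those with lower numbers or none. At the other side, 56 of 66 5p members (84.8%) began 5 bases from the hairpin's start and 8 began at its first base. In other 5p microRNAs a distance of 5 bases was seen in 24 of 283 (8.48%). These ends are those of the database entries; the deposited tables hold no read positions, so which ends the reads had is not known.

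**Figure D1:**
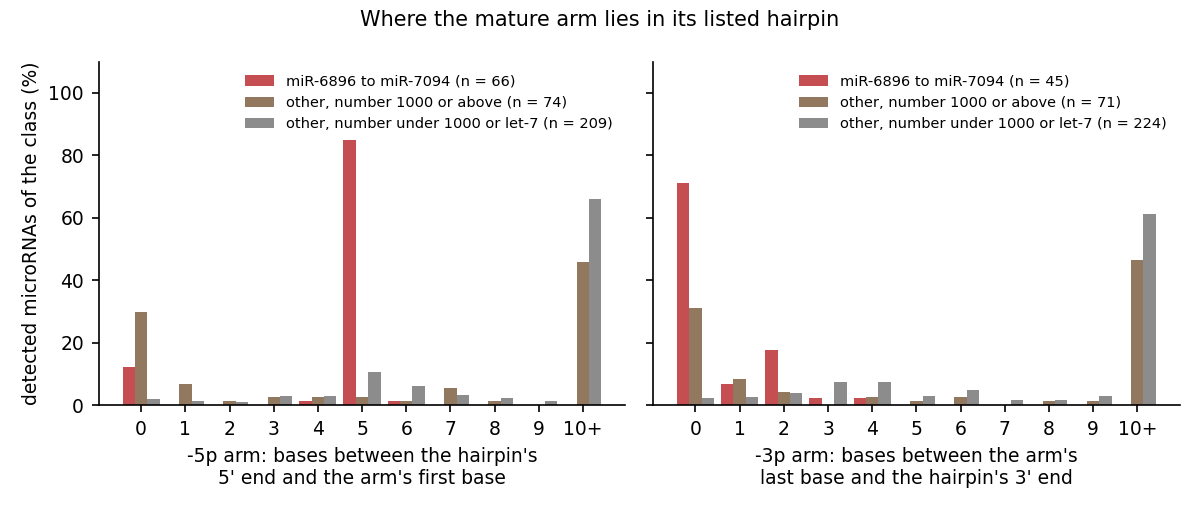
Percentage of detected microRNAs (y axis) by the number of bases between the mature arm and the end of its listed hairpin (x axis), with 5p arms on the left and 3p arms on the right, for the block miR-6896 to miR-7094 and for other microRNAs by number. Of the block's 5p members 84.8% stand at 5 bases and of its 3p members 71.1% at 0 bases, while most microRNAs numbered under 1000 or without a number stand at 10 bases or more.

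The arms also differed in composition. The median 3p member was 71.4% pyrimidine (C or U), against 54.5% in other 3p microRNAs and 61.9% in those of them numbered 1000 or above. The 3p names of the block with no read had a median of 72.7%. Introns carry a tract rich in pyrimidines before their acceptor. The median 5p member was 41.7% G, against 28.3% in other 5p microRNAs and 31.8% in those of them numbered 1000 or above. The 5p names of the block with no read had a median of 47.6%. Median length was 22 bases in both arms, as in the other microRNAs. Among names in the block with no read, 103 of 128 3p names ended in AG (80.5%), so this ending was common to detected and undetected names.

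Most hairpins lay inside protein-coding genes. Of 185 hairpins of the block in the reference, 160 (86.5%) lay inside a protein-coding gene on its own strand, none on the opposite strand, 23 inside a gene whose strand was not given and 2 in no protein-coding gene. Of 887 other hairpins 358 (40.4%) lay inside a protein-coding gene on the same strand, 82 on the opposite one and 375 in none. For the 419 of these numbered 1000 or above the counts were 201 (48.0%), 45 and 129 (30.8%). Exon borders were not used here, so whether a given hairpin fills an intron was not checked.

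The members were rare. They summed to 968 of 7741365 reads in the control library (0.0125%) and 859 of 6314572 in the Gata1 library (0.0136%), with each mature name counted once. The deposited values are CPM, read counts scaled so that all rows of a table reach the same fixed sum; the rows hold 15632553 and 12644419 reads, so 1 read is 0.0640 CPM with AAV-Control and 0.0791 CPM with AAV-Gata1. Just inside the rule stood 14 members with 1 read over both libraries, and just outside it 274 names at 0. The median member had 5 reads over both libraries, 34 had fewer than 3 and 13 reached 20. Outside the block 825 of 1512 names (54.6%) were detected, with a median of 77 reads.

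Gata1 was listed at 0 FPKM with AAV-Control and 2.07 FPKM with AAV-Gata1. The neuronal markers Map2, Rbfox3, Snap25 and Syn1 ranged from 17.5 to 240 FPKM over both libraries (Tubb3 was not used), and the neuronal miR-124-3p and miR-128-3p stood at 2667 and 32746 CPM in the control. All 4 astrocyte markers stood above 21.1 FPKM in the control, Aqp4 at 66.8 and Aldh1l1 at 21.6 FPKM, with Gfap at 887 FPKM and Slc1a3 at 607 FPKM with AAV-Control and 897 and 610 FPKM with AAV-Gata1. The oligodendrocyte lineage markers Mbp, Olig2 and Pdgfra stood between 22.4 and 38.5 FPKM over both libraries, and the microglia markers Cx3cr1 and Trem2 at 14.6 and 43.7 FPKM with AAV-Control and 18.2 and 53.4 FPKM with AAV-Gata1, so transcripts of other cell types were present beside those of neurons. Csf1r stood at 5.42 and 5.95 FPKM. P2ry12 (0.178 and 0.117 FPKM) and, of the endothelial markers, Cldn5 (0 and 0.0503 FPKM) and Pecam1 (0.340 and 0.441 FPKM) were near 0, and Kdr stood at 2.44 and 2.20 FPKM. The part of cell composition in the values below was not tested, and fewer cells of a type and less RNA per cell cannot be told apart.

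The best-covered members were 13 with at least 20 reads. Their mature sequences follow 5′ to 3′, where known, with the seed, bases 2 to 8, in capitals, because the seed is the stretch that pairs with target messages.

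miR-6944-3p: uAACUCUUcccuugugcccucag
miR-7033-5p: uCUCCAGGagucugaggggcagg
miR-7066-5p: uGGGUUGGgaaaugaguagagg
miR-6977-3p: aAGGCGUUgccugacccugacc
miR-7021-5p: aUAGGAGUugauuacagagcaa
miR-7063-5p: aUGAGAGGugcaggcugagcaca
miR-7068-3p: uCACCCUGgacugacucucag
miR-6911-3p: uCAAUCACacucuguccacag
miR-6948-3p: uGUCCUUCcugucugaccaca
miR-7010-5p: cGGAAAGGauugggaaacuuga
miR-7073-5p: uGGGGGAAuugaaagacuauga
miR-6896-5p: uUUGUAGGcgacgagaacccgu

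No seed was shared among these. Over the 119 sequenced members there were 117 different seeds. The seed AGGAGGA was common to miR-6916-5p and miR-6942-5p, and AGGGAGG to miR-6967-5p and miR-7016-5p. The seeds of 5 members were also those of a microRNA outside the block with a mean of at least 1 CPM: AGGGAGG is that of miR-1943-5p, CAGUGGG (miR-7055-5p) that of miR-194-2-3p, GGUCAGA (miR-6915-5p) that of miR-540-3p and UCGGGGA (miR-6966-5p) that of miR-542-5p. MicroRNAs outside the block with a mean below 1 CPM were not compared. The share of unshared seeds among other microRNAs was not computed, so these counts are a description.

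The most abundant member was miR-6944-3p, from an intron-ended hairpin in Dbn1, the gene of drebrin, an actin-binding protein of dendritic spines. It stood at 20.98 CPM (328 reads) with AAV-Control and 16.29 CPM (206 reads) with AAV-Gata1, a ratio of 0.776. The exact conditional binomial 95% interval of this ratio was 0.649 to 0.927. These intervals describe a pair of libraries and take in nothing but the error of counting, and reads copied by PCR are not independent molecules. This single microRNA held 33.9% of all member reads with AAV-Control and 24.0% with AAV-Gata1, and its 5p arm had no read in either (of 534 reads from the hairpin).

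The second was miR-7033-5p, from a hairpin in Pom121, a gene of the nuclear pore, at 5.25 and 4.27 CPM (82 and 54 reads, ratio 0.814, interval 0.567 to 1.16). Its interval includes 1. The order differed between the libraries: miR-7066-5p lay below miR-6977-3p, miR-7068-3p and miR-7021-5p in the control, while with AAV-Gata1 miR-6944-3p was the only member above it.

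**Figure D2:**
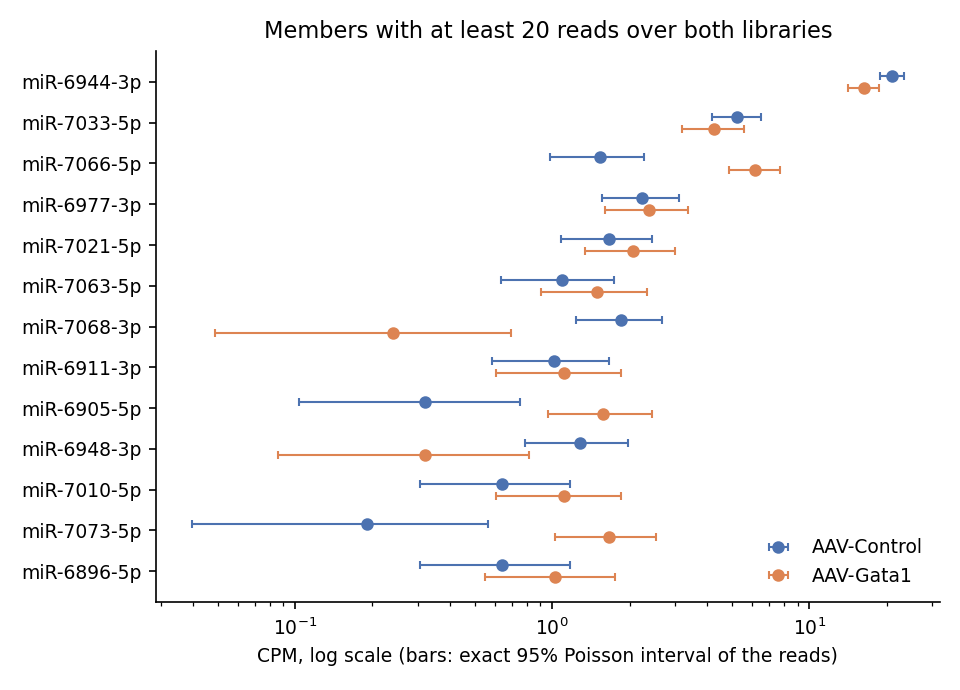
Level in CPM on a log axis (x axis) of the 13 members with at least 20 reads, in the AAV-Control and the AAV-Gata1 library, with exact 95% Poisson intervals of the reads as bars. The intervals of miR-7066-5p, miR-6905-5p and miR-7073-5p stand apart with the Gata1 library higher, and those of miR-7068-3p and, by a narrow gap, miR-6944-3p with it lower; miR-6944-3p lies above all others in both libraries.

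Of these 13 members 3 were at least 2-fold higher in the Gata1 library (23.1%, where 6.39% of all 563 microRNAs with at least 20 reads were) and 2 at least 2-fold lower (15.4%, where 4.26% of all were). The interval of the ratio lay above 1 for 3 (29.8% of all 563) and below 1 for 3 (19.4% of all 563). Detection in these libraries chose the members, so the counts are a description. At a like number of reads the shares were nearer to each other: among other microRNAs with 20 to 102 reads, the range of 11 of the 13, 31 of 163 (19.02%) were 2-fold higher and 19 (11.7%) 2-fold lower, beside 3 and 2 of the 11. The median log2 ratio of the 13 was 0.31, from −2.97 to 3.11, and that over all 563 was 0.052. Of the 13, 9 were higher and 4 lower. The share higher among all 563 was not computed, so this split is a description.

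miR-7066-5p, from a hairpin in Ncan, which encodes the brain matrix proteoglycan neurocan, stood at 1.54 CPM (24 reads) with AAV-Control and 6.17 CPM (78 reads) with AAV-Gata1. The ratio was 4.02 (interval 2.51 to 6.64). Its 3p arm had 0 and 5 reads. That arm met the rule through the Gata1 library alone, so it could only be higher and adds no support.

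miR-7073-5p, from a hairpin in Cnot1, the scaffold gene of the CCR4-NOT deadenylase, had 3 and 21 reads (0.19 and 1.66 CPM, ratio 8.65, interval 2.58 to 45.3). miR-6905-5p, from a hairpin in the Mediator subunit gene Med23, had 5 and 20 reads (0.32 and 1.58 CPM, ratio 4.95, interval 1.80 to 16.9), and its 3p arm had 0 and 5. With miR-7066-5p these are the 3 higher members, and for miR-7066-5p and miR-7073-5p the interval lay wholly above 2, as it did for 1.78% of all microRNAs with at least 20 reads and for 8 of the 163 others with 20 to 102 reads (4.91%).

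In the other direction, miR-7068-3p, from the intron-ended hairpin in Cherp, a gene linked to splicing and calcium balance in the endoplasmic reticulum, stood at 1.86 CPM (29 reads) with AAV-Control and 0.24 CPM (3 reads) with AAV-Gata1. The ratio of 0.128 had an interval of 0.0249 to 0.413, wholly below 0.5, as in 0.355% of all microRNAs with at least 20 reads and in 1 of the 163 others with 20 to 102 reads (0.613%). Its 5p arm was not lower, with 2 and 5 reads. The 3p arm thus held 93.5% of that hairpin's reads in the control (interval 78.6 to 99.2, 31 reads) and 37.5% in the Gata1 library (interval 8.52 to 75.5, 8 reads).

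miR-6948-3p, from Acin1, a gene of an RNA-binding protein that joins the exon junction complex, had 20 and 4 reads (1.28 and 0.32 CPM, ratio 0.247, interval 0.0615 to 0.738). Here both arms were lower together, since miR-6948-5p had 14 and 3 reads (ratio 0.265, interval 0.0488 to 0.949). The 3p share was 58.8% with AAV-Control and 57.1% with AAV-Gata1.

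For the remaining members of this depth the interval included 1. miR-6977-3p (Ptprs, a receptor tyrosine phosphatase of axons and synapses) stood at 2.24 and 2.37 CPM, ratio 1.06, and miR-6911-3p (Dazap1, an RNA-binding protein) at 1.02 and 1.11 CPM, ratio 1.08. Ratios above those of this pair were found for miR-7021-5p (Prdm2, a zinc finger methyltransferase gene; 26 and 26 reads, ratio 1.24), miR-7063-5p (Ap2a2, an adaptor subunit of clathrin-coated vesicles; 17 and 19 reads, ratio 1.38), miR-6896-5p (Dst, the cytoskeletal linker dystonin; 10 and 13 reads, ratio 1.61) and miR-7010-5p (Gucy1a1, a subunit of the nitric oxide receptor guanylate cyclase; 10 and 14 reads, ratio 1.73). The second arms of a pair of these hairpins were barely read, miR-7063-3p with 1 and 0 reads and miR-6911-5p with 0 and 2.

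The hosts of these hairpins were almost level between the mRNA libraries. Dbn1 stood at 105 and 98.1 FPKM (fragments per kilobase of transcript, scaled to library depth), Ncan at 77.5 and 72.6, Cherp at 19.3 and 17.8, Acin1 at 79.7 and 73.7, Cnot1 at 23.53 and 23.46 and Med23 at 13.3 and 10.9 FPKM. The strand of Cnot1, Med23 and Prdm2 was not given, so these are hosts by position alone. Over the 14 hairpins with at least 20 reads in both arms together and a known host, the host's log2((Gata1 + 1)/(control + 1)) lay between −0.26 and 0.028, and 12 of 14 were below 0. The median over all 13740 genes that averaged 1 FPKM or more was also below 0 (−0.013). The share of all genes below 0 was not computed, so 12 of 14 is a description. None of these hosts was 2-fold apart, where 0.517% of the 13740 genes were. The FPKM values of Ncan and Cherp were thus both slightly lower with AAV-Gata1, while the ratios of miR-7066-5p and miR-7068-3p were 4.02 and 0.128; whether host and microRNA differ in response was not tested.

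Host genes were mostly active in these cultures. Of 97 distinct hosts of detected hairpins found in the mRNA tables, 96 (99.0%) reached 1 FPKM in the control, with a median of 25.9 FPKM (24.6 FPKM in the Gata1 library). The 84 hosts of hairpins with no read had a median of 13.7 FPKM, and 71 of them (84.5%) reached 1 FPKM. Over all protein-coding genes 60.6% reached 1 FPKM, and the median was 4.19 FPKM. The detected hairpin whose host fell below 1 FPKM was Mir6974, in the lymphotoxin gene Lta (0.147 and 0.195 FPKM), named after its values were seen, and it rested on 1 read.

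Hairpins in hosts of higher level were more often detected, though not in every step. Where the host was under 1 FPKM, 1 of 14 hairpins (7.14%) had a read, between 1 and 5 FPKM 10 of 24 (41.7%), between 5 and 10 FPKM 6 of 18 (33.3%), between 10 and 20 FPKM 23 of 39 (59.0%), between 20 and 50 FPKM 36 of 53 (67.9%), and from 50 FPKM 21 of 33 (63.6%). Together, 80 of 125 hairpins (64.0%) in hosts of at least 10 FPKM had reads and 17 of 56 (30.4%) in hosts below it. Among the detected hairpins the number of reads hardly followed the host: across 97 hairpins, which share both libraries, Spearman's rho was 0.042 and Pearson's r of the log2 values 0.11, as a description.

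**Figure D3:**
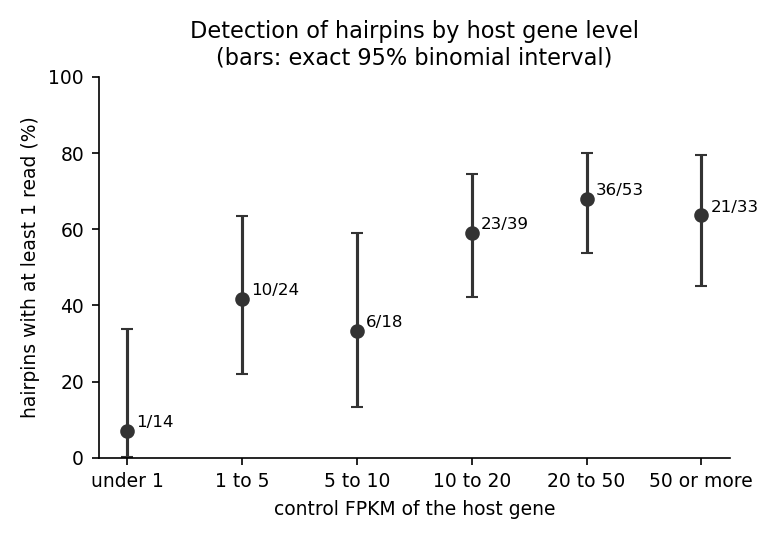
Percentage of the block's hairpins with at least 1 read (y axis) by the control FPKM of the gene they lie in (x axis), with exact 95% binomial intervals and the number of hairpins beside each point. The share is 7.14% under 1 FPKM and between 59.0% and 67.9% in the 3 groups from 10 FPKM upward.

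The arms were used unequally. Of the 129 members 77 were 5p and 52 were 3p names, against 363 and 368 of the 731 other microRNAs with an arm in their name. The members came from 103 hairpins, of which 26 had reads from both arms and 77 from a single arm. A hairpin with 1 read can show a single arm only, and the share over other hairpins was not computed. Among the 15 hairpins with at least 20 reads the 5p arm led in 9 and the 3p arm in 6, and 7 had reads from 1 arm alone. For miR-7033 all 136 reads and for miR-7021 all 52 were 5p, while for miR-6977 all 65 were 3p, as for miR-6944.

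By reads, 57.3% of the members' total was 3p in the control (interval 54.1 to 60.5) and 44.6% in the Gata1 library (interval 41.2 to 48.0). Without miR-6944-3p the 3p share was 35.5% (interval 31.8 to 39.3) and 27.1% (interval 23.7 to 30.7). In all other microRNAs with an arm in their name the 3p share was 17.9% (interval 17.90 to 17.95) and 18.3% (interval 18.30 to 18.36), and in those numbered 1000 or above 35.5% (interval 34.9 to 36.2) and 37.1% (interval 36.4 to 37.8). The paired intervals lay apart in each of these sets, with the 3p share lower with AAV-Gata1 in the members and higher in the others. Single members weigh on the members' share, since miR-7066-5p had 24 and 78 reads and miR-7068-3p 29 and 3. The share without these members was not computed, so no shift of the block as a whole can be read from it. In CPM, the 77 5p members summed to 26.4 with AAV-Control and 37.6 with AAV-Gata1 (ratio 1.42, interval 1.25 to 1.63), or a ratio of 1.26 (interval 1.097 to 1.458) without miR-7066-5p. The 52 3p members summed to 35.5 and 30.3 CPM (ratio 0.853, interval 0.747 to 0.974), and without miR-6944-3p to 14.52 and 13.998 CPM (ratio 0.964, interval 0.787 to 1.18). Over both arms the sums were 61.9 and 67.9 CPM, a ratio of 1.097 (interval 0.9996 to 1.204), and without miR-6944-3p 40.9 and 51.6 CPM, a ratio of 1.26.

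**Figure D4:**
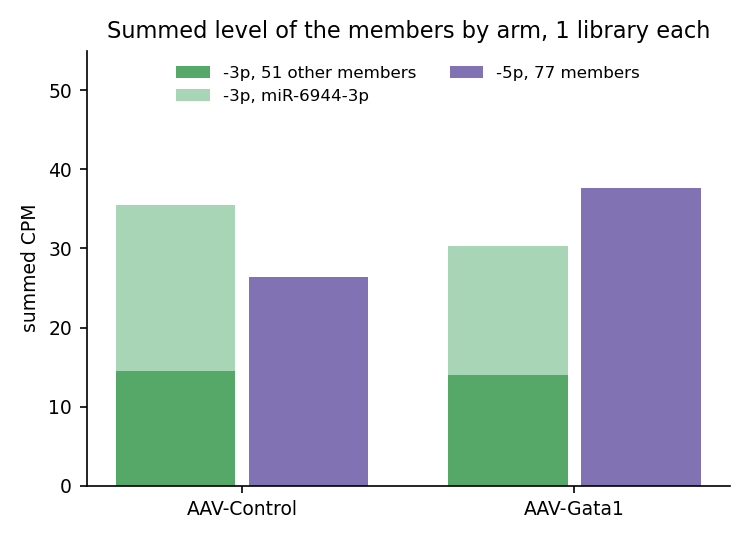
Summed CPM (y axis) of 3p and 5p members in the AAV-Control and the AAV-Gata1 library, with the part of miR-6944-3p in light green. The 5p sum is 26.4 CPM with AAV-Control and 37.6 CPM with AAV-Gata1, and the 3p sum apart from miR-6944-3p is 14.52 and 13.998 CPM.

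Below 20 reads stood 116 members, many of them found in a single library. Of all 129, 57 were found in both libraries, 33 in the control alone and 39 in the Gata1 library alone, and no member found in a single library had more than 14 reads. A member found in a single library had to differ, so these counts show no shift. The same split over all microRNAs was not computed. With 3 to 19 reads, 41 of 82 members were at 0 in 1 library, as were 100 of 226 other microRNAs (44.2%). With 5 to 19 reads, 23 of 59 members (39.0%) and 46 of 159 other microRNAs (28.9%) were at 0 in 1 library. The interval of the ratio lay above 1 for 16 of the 116 (13.6% of all microRNAs with 1 to 19 reads) and below 1 for 9 (8.44% of all). As shares of the 116, 13.8% and 7.76%, these are near the background.

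Some hairpins of this group are named here for their unlike counts, after their values were seen, so the counts are a description. Mir6994, in Patl1, a gene of the mRNA decapping machinery, gave 0 reads with AAV-Control and 19 with AAV-Gata1, 12 from miR-6994-3p and 7 from miR-6994-5p. Both arms met the rule through the Gata1 library alone, so they could only be higher. For miR-6991 the 5p arm had 10 and 0 reads and the 3p arm 0 and 7, each meeting the rule through 1 library alone. miR-6916-5p had 14 reads with AAV-Control and 0 with AAV-Gata1, so it met the rule through the control library alone. miR-6946-5p had 14 and 1 reads (ratio 0.0883, interval 0.00209 to 0.580). miR-6951-5p had 1 and 15 reads (ratio 18.5, interval 2.85 to 781).

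**Figure D5:**
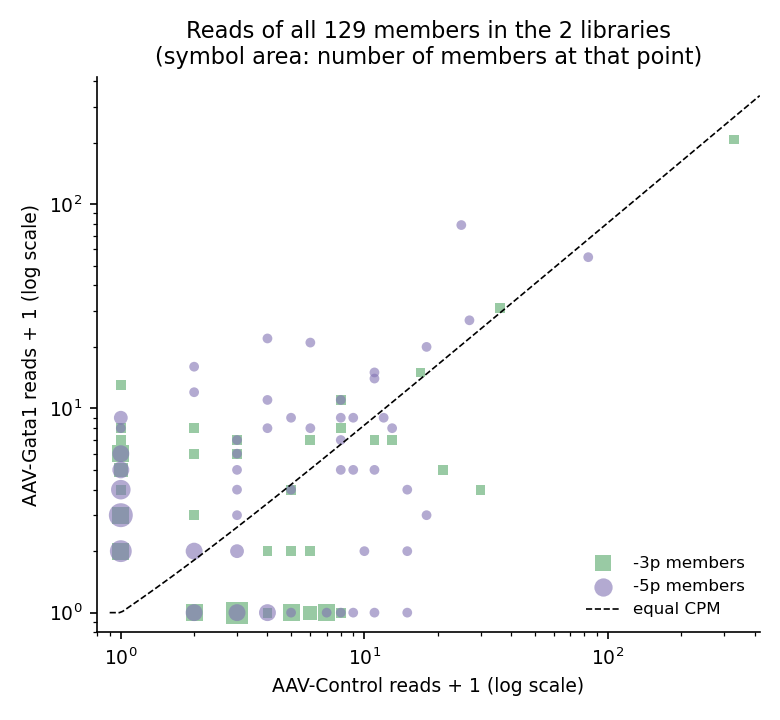
Reads plus 1 of each of the 129 members in the AAV-Control library (x axis, log scale) and in the AAV-Gata1 library (y axis, log scale), by arm, with symbol area for the number of members at a point and a dashed line of equal CPM. The 33 members along the lower edge and the 39 along the left edge have no read in 1 of the libraries, and miR-6944-3p, at 328 and 206 reads, stands alone at the upper right.

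The list of microRNA pathway genes held the factors that make and load mirtrons, the microprocessor that they bypass, and factors that tail or degrade hairpins. All 15 genes of the list reached a mean of 1 FPKM, and none was 2-fold apart (0.517% of all genes were). In the Gata1 library 5 were higher and 10 lower. The share of all genes that were lower was not computed, so this split is a description. Their log2 ratios lay between −0.25 and 0.037, with a median of −0.016 beside −0.013 over all 13740 genes. The debranching enzyme gene Dbr1 stood at 7.76 and 7.32 FPKM. The export genes Xpo5 and Ran stood at 23.6 and 23.8 and at 108 and 109 FPKM, the nuclease gene Dicer1 at 9.70 and 9.55 FPKM, and its partners Tarbp2 and Prkra at 16.9 and 17.1 and at 29.97 and 29.74 FPKM.

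Of the Argonaute genes, whose products hold the mature strand, Ago1 stood at 25.5 and 24.3 FPKM, Ago2 at 13.742 and 13.745, Ago3 at 4.90 and 3.97 and Ago4 at 3.65 and 3.43. Ago3 had the lowest ratio of the list. The microprocessor genes Drosha (31.4 and 31.0 FPKM) and Dgcr8 (13.8 and 12.1 FPKM), which mirtrons bypass, were listed for comparison. The terminal uridylyl transferase genes Zcchc11 (11.90 and 11.82 FPKM) and Zcchc6 (14.2 and 13.9 FPKM) and the exonuclease gene Dis3l2 (9.11 and 9.37 FPKM), which tail hairpin ends and degrade tailed ones, also differed little.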

How the data were processed

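Small RNA and mRNA of 1 culture library per condition were used. The deposited small RNA values are normalized counts, per the file headers, and are CPM by their sums; the deposited mRNA values are FPKM, per the file headers. Bowtie 1.1.2, HTSeq 0.6.1p1, edgeR 3.10.2, TopHat2 2.1.1 and Cufflinks 2.1.1 and the builds mm9 and mm10 are named without roles, per the submitters' processing notes. The handling of reads that match several loci is not given in those sources.

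Every CPM value above 0 (100% in both libraries, tolerance 0.0055 CPM) was a whole multiple of 1 step, so reads were recovered. The highest-mean row was kept per name. Ratios are of CPM, with exact conditional binomial 95% intervals from the reads. Over all 563 microRNAs with at least 20 reads, 168 intervals lay above 1 and 109 below it. In log2 ratios a count of 0 was set to a floor of 3 reads, 0.192 CPM with AAV-Control and 0.237 CPM with AAV-Gata1. Shares have Clopper-Pearson intervals. With 1 library per group no test of the conditions was possible.

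Hairpin and mature sequences, positions and host genes came from RefSeq tables (GRCm38.p6). A host is a protein-coding gene whose span holds the hairpin, on the same strand where the strand was given; Gucy1a1 is listed as Gucy1a3 in the mRNA tables. mRNA rows without a symbol (6) were left out. The members and lists were chosen with earlier results of these data known. Named microRNAs are the 12 members with the most reads, the 5 highest and 5 lowest ratios at 20 reads, those wholly past 2-fold and both arms of 6 hairpins; others are said to be named after their values were seen. Scripts (Python 3.11.15, scipy 1.17.1, pandas 2.3.3) were tested on simulated data.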

Additional observations from a re-analysis of the deposited data

How the results depend on the processing

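Of 41 alternative values over 9 results, 28 stayed within the main value's interval or, for counts, within 1.5 times. A reversal could not be called for any result. The main intervals of the summed CPM ratio and the median log2 ratio include no difference, and the other results had no direction. For the summed CPM ratio the main interval barely included 1 (0.9996 to 1.204). It lay above 1 after summing all rows of a name (ratio 1.102, interval 1.005 to 1.210) and in the settings without miR-6944-3p. It included 1 after rescaling to 1 row per name, centring on the median or counting names with the same counts once. The interval of the median log2 ratio was wide (−0.365 to 2.006), so alternative values were likely to stay within it. The counts of members 2-fold higher and lower, 3 and 2 at 20 reads, followed the minimum: 9 and 9 of 40 members at 10 reads (10.6% and 8.42% of all microRNAs), 27 and 20 of 72 at 5 reads, a setting chosen after seeing the data (15.9% and 12.04% of all), and 1 and 0 of 5 at 50 reads (3.90% and 2.16% of all). The shares of all microRNAs include names with far more reads, and shares at a like number of reads were not computed for these minimums. Without miR-6944-3p the summed CPM ratio was 1.26 in place of 1.097 and the 3p share 35.5% with AAV-Control and 27.1% with AAV-Gata1. Without miR-7033-5p as well, a setting chosen after seeing the data, they were 1.33, 40.7% and 29.5%. The median FPKM of host genes was 25.9, and 31.9 for hairpins with at least 20 reads. Rescaling to 1 row per name, centring on the median, summing rows and counting names with the same counts once changed no count of 2-fold members. No paired analysis was possible because each condition had 1 library. At 5 reads per median member, most single differences are within counting error.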
